A study of Mus musculus with 4 samples.

Results

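The genes described here drive the cell division cycle and DNA replication. They were taken from a list of 40 symbols, of which 39 had at least 1 probe set that the platform annotation gives to that gene alone. Only Ccnb1, which encodes cyclin B1, had none. These 39 are among 12393 genes on the array that could be named in this way. Where a gene had several probe sets, the one with the highest mean over the 4 arrays stood for it.

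RNA from small intestine was measured on 4 Affymetrix arrays, 1 array per mouse, all mice being 1 month old. The 2 mice labelled null were a male and a female. Both carried a minus allele of HNF4 and a loxP-flanked one, with Cre recombinase under the villin promoter, a promoter of gut epithelial cells. The female control carried the loxP allele over a wild-type allele with villin-Cre, and the male control carried the loxP allele over a minus allele without Cre. All 4 animals therefore had at least 1 loxP allele, and sex and genotype could not be told apart between the controls. HNF4 names a nuclear receptor of liver and gut, and the labels do not say which paralogue was targeted. Cre under this promoter leaves the loxP allele intact in the muscle, connective tissue and immune cells of the wall. The minus allele does not depend on Cre, and both null mice and the male control carried it while the female control did not. The labels do not say which stretch was sampled or if the epithelium had been isolated, and Acta2 of smooth muscle, at 1387 to 1564, and Dcn of fibroblasts, at 340.4 to 483, were present on every array. The labels name separate animals, so p-values measure the spread between animals, with 2 in each group. Pairs of values are given in the order male null and female null, then female control and male control.

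In the small intestine, cell division takes place in the crypts, where stem cells and rapidly dividing progenitors replace the epithelium, while the cells of the villus have left the cycle. A dividing cell first commits in G1 phase through D-type cyclins with Cdk4, then licenses and copies its DNA in S phase, and finally builds a spindle and separates its chromosomes in mitosis. Genes of S phase are driven largely by E2F factors, and genes of mitosis by complexes that bind CCAAT boxes and an element called the cell cycle genes homology region (CHR). In RNA from tissue, fewer dividing cells and less RNA per dividing cell cannot be told apart.

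The promoters of the members show this division, and those of Cdk1, Top2a and Mcm6 are printed because they carry the motifs of the mitosis and the replication class. Each is the 250 bases before the start of transcription, read 5′ to 3′ on the gene's strand, from RefSeq on GRCm38.p6. Capitals mark every match on either strand to TTTGAA (the CHR core), CCAAT, TTTCCCGC or TTTGGCGC (the last pair being E2F type sites). Cdk1, the kinase of mitotic entry, lies on the minus strand at chr10:69352913-69353162, Top2a, which untangles sister DNA, on the minus strand at chr11:99024190-99024439, and Mcm6, a subunit of the replicative helicase, on the minus strand at chr1:128359706-128359955.
Cdk1: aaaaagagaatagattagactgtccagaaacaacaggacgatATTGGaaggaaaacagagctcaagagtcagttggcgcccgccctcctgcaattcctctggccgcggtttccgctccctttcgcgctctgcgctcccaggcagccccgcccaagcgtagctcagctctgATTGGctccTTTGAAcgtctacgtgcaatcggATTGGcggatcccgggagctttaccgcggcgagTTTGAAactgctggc
Top2a: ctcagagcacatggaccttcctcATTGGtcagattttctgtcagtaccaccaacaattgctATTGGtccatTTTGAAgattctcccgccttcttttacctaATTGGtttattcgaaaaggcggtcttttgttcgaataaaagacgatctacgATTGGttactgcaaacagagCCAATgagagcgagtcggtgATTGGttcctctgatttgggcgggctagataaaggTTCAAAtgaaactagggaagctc
Mcm6: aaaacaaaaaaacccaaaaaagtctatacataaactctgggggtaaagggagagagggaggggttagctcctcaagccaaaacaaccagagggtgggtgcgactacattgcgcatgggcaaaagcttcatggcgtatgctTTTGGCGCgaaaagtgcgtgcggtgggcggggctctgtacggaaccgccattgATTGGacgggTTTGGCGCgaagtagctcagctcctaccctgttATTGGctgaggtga

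Promoters were found for 32 of the 40 listed genes, 36 in all, in windows of 300 bases that also hold the first 50 transcribed ones. Of the 13 promoters of G2 phase and mitosis genes, 9 held both a CHR core and a CCAAT box (69.2%), against 6.95% of all 32851 promoters. None of these 13 held either E2F type site. Of the 14 promoters of S phase genes, 5 held an E2F type site (35.7%), against 1.56% of all promoters, and these belonged to Cdc6, Mcm3, Mcm5, Mcm6 and Mcm7. A CCAAT box was in 10 of the 14 S phase promoters and in 37.4% of all promoters, and a CHR core in 2 of the 14 and in 17.9% of all. The 5 promoters of the Cdk inhibitors held neither the CHR core nor an E2F type site. These matches describe letters in the windows and do not show binding in these animals.

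The deposited values of 4 further genes set the scale. Hnf4a read 1136 and 1025 in the male and the female null against 1141 and 731 in the female and the male control, and Hnf4g read 327 and 445 against 404 and 309.6. Neither was lower in both null mice than in both controls, and the labels do not tell whether these probe sets lie in the deleted part, so the values do not check the labels. The enterocyte proteins Fabp2, between 6580 and 7836 on all arrays, and Vil1, between 1343 and 2335, matched the labelled tissue. As a gauge of the dim end, the probe sets of 3 Y-linked genes (Kdm5d, Uty and Eif2s3y) read −2.23 to 34.4 in the 2 females. Of the members, 28 lay above that range on every array and 3 (Cdc6, Ccne2 and Cdc25c) lay at or below its upper end on every array. The other 8 did so on at least 1 array, and these 11 are not shown to lie above background on all arrays.

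Null was set against control intestine to ask whether transcripts of the cell cycle moved with the loss of HNF4. None of the listed genes passed the test. Of the 39 members, 33 were bright enough to be tested, and 0 of them passed an adjusted p of 0.05 in limma, where 0.0210% of the 9546 genes and 0.0126% of the 15838 probe sets tested passed. None had an unadjusted p under 0.05 either, against 3.21% of all genes tested. That held for the fit with all 4 arrays, and single differences moved when 1 null array was left out. Without the female null, Ccnd1 stood at −0.79, Mcm3 at 0.81, Rrm1 at −0.64 and E2f1 at 0.59. Without the male null the same genes stood at 0.15, 0.089, 0.32 and 0.10. The differences of the 33 ran from −0.32 for Ccnd1 to 0.52 for Cdc45 on the log2 scale, null minus control, with 18 above 0 and 15 below. Their median was 0.033, beside 0.0013 over all genes tested, of which 50.3% were above 0. Over all 39 members, the median was 0.052.

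**Figure D1:**
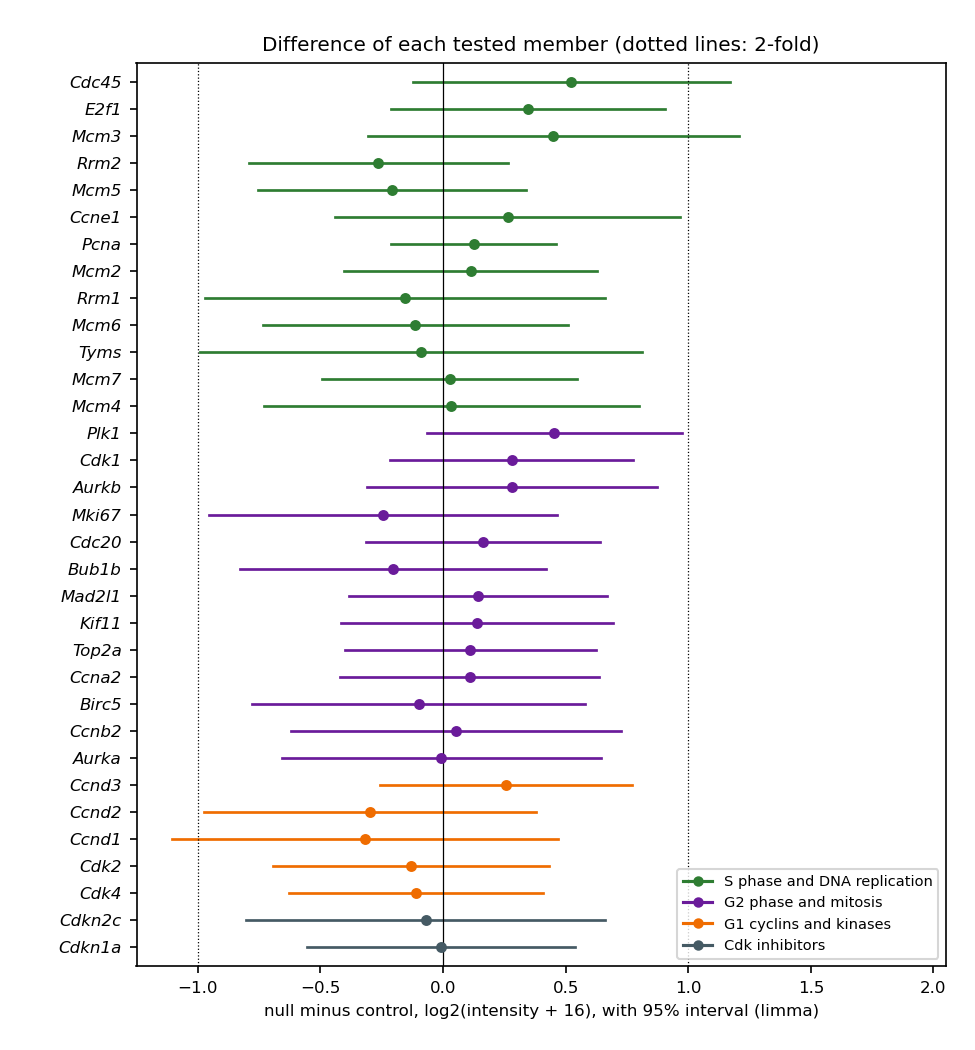
Null minus control difference of each of the 33 tested members in log2(intensity + 16) after quantile normalization (points), with the 95% interval of limma (lines), coloured by role. Every interval crosses 0, and 30 of the 33 lie between the dotted lines at −1 and 1, which mark a 2-fold difference on this scale.

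The intervals give the precision. For 30 of the 33 members, the 95% interval of the difference lay wholly within 1 log2 unit of 0. Of all 9546 genes tested, 7652 had such an interval. The median standard error was 0.24 for the members, as it was over all genes tested. The exceptions among the members were Cdc45, with an interval from −0.12 to 1.17, Mcm3, from −0.31 to 1.20, and Ccnd1, from −1.10 to 0.47. With sex as a block in the fit, 0 members passed as well, where 0.262% of all genes did, and the smallest unadjusted p of a member was 0.0989.

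Genes of S phase stood at a median of 0.033 over 15 members, which was 0.21 without the male null and −0.15 without the female null. Of the 13 tested, 8 were above 0 and 5 below, and 0 passed. The group's largest positive value was that of Cdc45, which joins the replicative helicase when origins fire. It read 25.7 and 44.2 in the male and the female null against 16.5 and 23.6 in the female and the male control, a difference of 0.52 (SE 0.27) with an adjusted p of 1.00 in limma. Both null values lay above both controls, but 3 of the 4 values fell within the range of the Y-linked genes in females. Without the female control the difference was 0.38 and without the male control it was 0.67, and without either null animal the probe set fell under the filter on dim values. With a pseudocount of 1 in place of 16 it was 0.82, and with 64 it was 0.25.

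E2f1, the transcription factor that turns on S phase genes, read 263 and 207 in the null mice and 181 and 191.2 in the controls. The groups did not overlap, the difference was 0.35 (SE 0.23), and the unadjusted p was 0.184 in limma. The female null lay close to the controls, and the difference was 0.10 without the male null and 0.59 without the female null. Pcna, the sliding clamp of DNA polymerase, read 852 and 874 against 799 and 815. This was again a separation without overlap, of 0.12 (SE 0.14), and its range over the 4 arrays was the smallest of any member at 0.17.

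The helicase subunits Mcm2 to Mcm7 had differences of both signs, from −0.21 to 0.45, and none passed. Mcm3 read 120.1 and 79.0 in the null mice against 84.8 and 56.2 in control mice, so that the male null was highest and the male control lowest, and the groups overlapped. Its difference was 0.45 (SE 0.32), but only 2 of its 5 probe sets were above 0, and they ran from −0.51 to 0.45. Without the male null it was 0.089 and without the female null 0.81. Mcm5 read 84.2 and 91.5 against 123 and 93.3, with the female control highest, at −0.21 (SE 0.23). Mcm6 read 190.5 and 351 against 293 and 294, at −0.11 (SE 0.26), with the controls between the 2 null mice. Mcm2, Mcm4 and Mcm7 differed by 0.11, 0.033 and 0.027. Other probe sets differed in sign: 3 of the 4 of Mcm7 were below 0, and the second stood at −0.21 for Mcm2 and 0.048 for Mcm6. Of the 16 members with 2 or more tested probe sets, 8 had tested probe sets of both signs. In Mcm4 the male null was lowest at 54.7 and the female null highest at 127, against 100.1 and 72.6 in the controls. Mcm7 read 159 and 241 against 209 and 190.8, again with the controls inside the span of the null mice. Mcm2 read 84.1 and 118 against 96.6 and 92.6, and here too the groups overlapped.

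The 3 enzymes of nucleotide supply stood below 0 and none passed. Rrm2, the regulated subunit of ribonucleotide reductase, which makes deoxynucleotides, read 54.0 and 76.1 in the null mice against 88.4 and 78.5 in control mice. After normalization it was the 1 member of the 33 with both null arrays below both controls, at −0.26 (SE 0.22), and all 3 of its probe sets were below 0. Rrm1, the large subunit, read 53.1 and 140.1 against 115 and 93.7, at −0.16 (SE 0.34), so that the null mice enclosed the controls. Tyms, which makes thymidylate, read 12.8 and 53.1 against 27.7 and 39.97, at −0.090 (SE 0.38), the widest error of all members tested. Its other tested probe set stood at 0.43, with 0.30 between the males and 0.55 between the females, so the direction of Tyms depended on the probe set.

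Ccne1, the cyclin that starts S phase with Cdk2, read 36.2 and 32.3 in the null mice and 35.2 and 19.8 in the controls, at 0.26 (SE 0.29), and the groups overlapped. Without the male control the difference was 0.0054 and without the female control 0.52. Its relative Ccne2 was too dim to test, at 10.5 and 29.3 against 22.1 and 33.0. Cdc6, which loads the helicase onto origins, was too dim as well, at 12.4 and 17.5 against 9.47 and 6.69.

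Genes of G2 phase and mitosis had a median of 0.14 over 16 members and 0.11 over the 13 tested. Over the 16, it was 0.26 without the male null and 0.053 without the male control. Of these 13, 9 were above 0 and 4 below, and 0 passed. Plk1, a kinase of mitotic entry and spindle assembly, had the smallest p of all members. It read 94.03 and 106 in the null mice and 77.6 and 65.1 in the controls, at 0.45 (SE 0.22), with an unadjusted p of 0.0776 and an adjusted p of 1.00 in limma. Both null values lay above both controls, and the difference was 0.58 between the males and 0.33 between the females. Without 1 of the 4 arrays in turn it stayed between 0.36 and 0.55.

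Cdk1, whose promoter is printed above, read 274 and 337 in the null mice and 295 and 223 in the controls, at 0.28 (SE 0.21). After normalization its null values lay above the controls, while the deposited values overlapped. Aurkb, the kinase of the chromosomal passenger complex, read 36.0 and 39.2 against 32.8 and 25.9, at 0.28 (SE 0.25), with no overlap on either scale. On its other tested probe set the groups overlapped, at 23.3 and 44.8 against 37.1 and 25.1, a difference of 0.11. Kif11, the motor that pushes the spindle poles apart, read 39.1 and 50.9 against 43.9 and 37.7, at 0.14 (SE 0.23). Like Cdk1, it separated the groups only after normalization, and its other tested probe set stood at −0.033.

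Mki67 and Top2a, both widely used as markers of dividing cells, did not pass and had opposite signs. Mki67, which encodes the Ki-67 antigen, read 107 and 176 in the null mice against 225 and 131 in control mice, at −0.25 (SE 0.30). The female control was highest, and the 2 males were lowest. Top2a read 168 and 189 against 194 and 147, at 0.11 (SE 0.21). A second, dimmer probe set of Top2a stood at 0.76 (SE 0.33) with an unadjusted p of 0.0573 in limma, reading 42.02 and 35.1 against 10.02 and 25.9. Those control values lie within the range of the Y-linked genes in females, so the size of that difference is uncertain.

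Among the cyclins and regulators of mitotic exit, Ccna2, cyclin A2, read 147 and 133 in the null mice against 135 and 129 in control mice, at 0.11 (SE 0.22). Ccnb2, cyclin B2, read 72.7 and 149.9 against 102 and 107, at 0.052 (SE 0.28), with both controls between the null mice. Cdc20, which activates the anaphase-promoting complex, read 230.0 and 283 against 259 and 211, at 0.16 (SE 0.20). Its second probe set stood at 0.27 and another at −0.21. That last one had 1.66 between the males and −2.08 between the females, far from the other Cdc20 probe sets on the same arrays.

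The spindle checkpoint genes split. Bub1b, which encodes BubR1, read 63.5 and 109 in the null mice against 119 and 87.6 in control mice, at −0.20 (SE 0.26). Mad2l1 read 108 and 143 against 128 and 103, at 0.14 (SE 0.22). Bub1 was too dim to test, at 7.23 and 49.9 against 27.1 and 15.4. On these probe sets the groups overlapped in each of the 3 genes. A second probe set of Bub1, also too dim to test, read −12.1 and −3.39 against 11.6 and 10.8. It stood at −0.74, with no overlap.

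Birc5, survivin of the passenger complex, read 94.1 and 189 in the null mice against 166 and 136 in control mice, at −0.099 (SE 0.28). Aurka, the kinase of the spindle poles, read 26.7 and 56.4 against 41.5 and 41.5, at −0.0073 (SE 0.27). In both genes the male null was lowest and the female null highest, with the controls between them. Kif20a, a motor of cytokinesis, read 20.8 and 39.1 against 25.6 and 19.97, and Cdc25c, the phosphatase that activates Cdk1, read 8.40 and 14.3 against −3.28 and 23.5, and neither was tested.

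**Figure D2:**
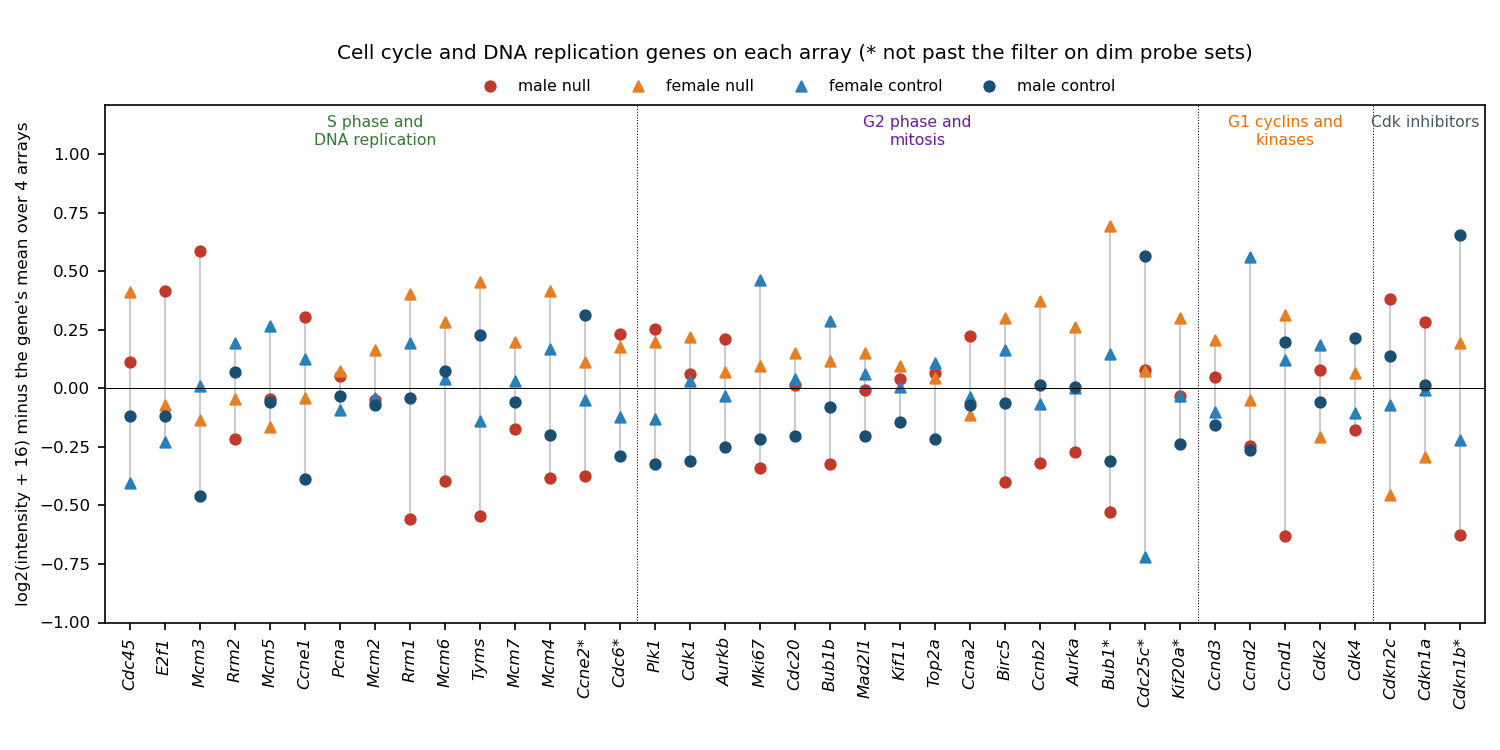
Each of the 39 members on each of the 4 arrays, as normalized log2(intensity + 16) minus the gene's own mean over the arrays, ordered by role and then by p (asterisks: not past the filter on dim probe sets). Circles are males and triangles females, and in 13 of the 33 tested members the male null is the lowest point while in 17 of the 33 the female null is the highest.

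Genes of G1 phase had a median of −0.13 over 5 members, with 1 above 0 and 4 below, and 0 passed. Without the male null the median was 0.0088. Ccnd1, cyclin D1, read 66.5 and 167 in the null mice against 139 and 144 in control mice, at −0.32 (SE 0.33). The male null was lowest on all 3 of its probe sets, while the female null was above both controls on the brightest. The difference was accordingly −0.83 between the males and 0.19 between the females. Ccnd2, cyclin D2, read 359 and 441 against 698 and 376, at −0.30 (SE 0.28). Here the female control was the highest of the 4 arrays on all 7 probe sets, and the other 3 animals lay together, with 0.015 between the males and −0.61 between the females. All 7 probe sets of Ccnd2 and all 3 of Ccnd1 were below 0 over the 4 arrays. Without the female control the difference of Ccnd2 was 0.12, and without the male null that of Ccnd1 was 0.15, so that 1 array decided the sign of each.

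Ccnd3, cyclin D3, read 80.9 and 109 in the null mice against 81.6 and 76.9 in control mice, at 0.26 (SE 0.21), with the groups apart only after normalization. The partner kinase Cdk4 read 186 and 252 against 219 and 269.7, at −0.11 (SE 0.22), and its other probe sets stood at −0.30 and 0.12. Cdk2, the kinase of S phase entry, read 72.2 and 68.4 against 90.3 and 72.5, at −0.13 (SE 0.24). In Cdk4 the groups overlapped on both scales, and in Cdk2 only after normalization, where the male null stood above the male control.

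None of the inhibitors of the kinases passed. On their brightest probe sets, both tested ones had opposite signs in the 2 sexes, a contrast that was not tested. Cdkn1a, p21, which is induced as progenitors stop dividing and by p53, read 517 and 356 in the null mice against 439 and 436 in control mice. Over the 3 inhibitors the median was −0.071, and it was 0.29 without the female null and 0.0054 without the male control. The difference of Cdkn1a was −0.0077 (SE 0.23), made of 0.27 between the males and −0.29 between the females. Its other probe set stood at −0.069 between the males and −0.68 between the females, so the contrast depended on the probe set. Cdkn2c, p18, an inhibitor of Cdk4 and Cdk6, read 214 and 131 against 170.1 and 194, at −0.071 (SE 0.31), with 0.24 between the males and −0.38 between the females. On the brightest probe set of both genes the male null was highest and the female null lowest. Cdkn1b, p27, was too dim to test, at 5.53 and 30.9 against 17.2 and 44.5. It ran the other way, at −1.28 between the males and 0.42 between the females, and its 2 probe sets stood at −0.43 and 0.53.

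**Figure D3:**
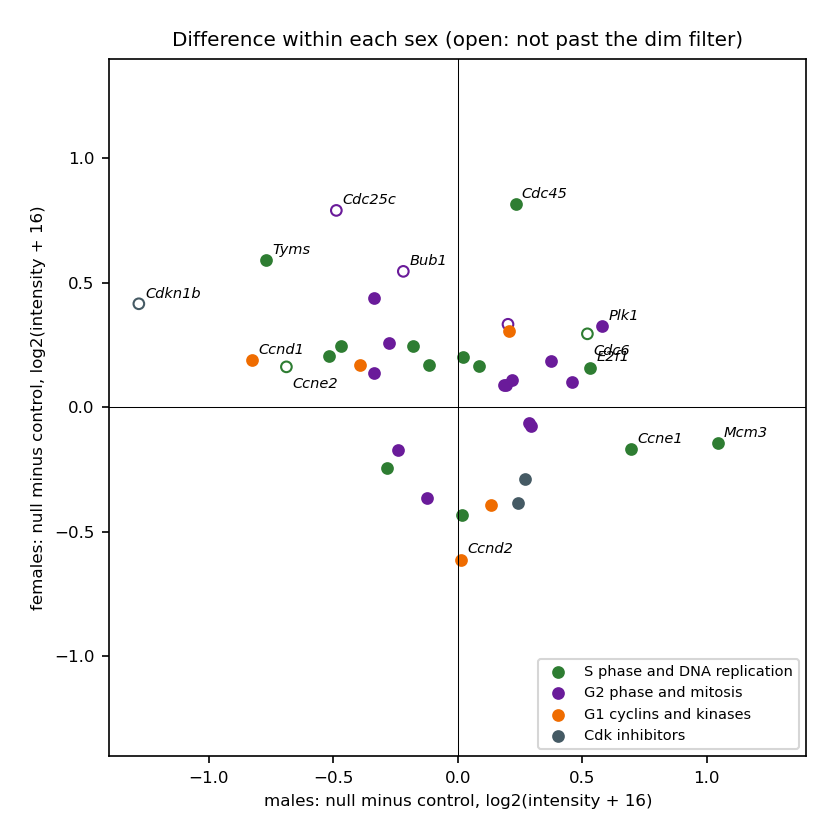
Difference within the male pair (the male null minus the male control, horizontal) against that within the female pair (the female null minus the female control, vertical), both in log2(intensity + 16), for the 39 members coloured by role (open: not past the filter on dim probe sets). Of the 33 tested members, 14 had the same sign in both pairs, and Tyms at −0.77 and 0.59 lies far out in the upper left.

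The separation of the groups was counted over the tested members. After quantile normalization, both null arrays lay above both controls in 8 of 33 members (24.2%), where 14.4% of all genes tested did so, and below both in 1 of 33 (3.03%), against 15.2%. In the deposited values without normalization the counts were 5 and 3 of 33, where 12.1% of all genes lay above and 16.1% below. Scaling to a common median gave 9 and 1, with 14.1% of all genes in each direction. Aurkb, Cdc45, E2f1 and Plk1 lay above on all 3 scales, and Rrm2 lay below on all 3. Mcm5 and Cdk2 lay below only in the deposited values. No test was made on these counts.

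The 2 animals of a group often differed. The range over the 4 arrays had a median of 0.58 on the log2 scale for the 33 members, beside 0.50 for all genes tested, while the median size of the group difference was 0.14 for the members and 0.16 for all genes. The male null lay below the female null in 22 of 33 members (66.7%), beside 50.9% of all genes. It was the lowest of the 4 arrays in 13 of them (39.4%, against 32.8% of all genes), and the female null was the highest in 17 (51.5%, against 27.4%). Among the 13 mitosis genes, the female control lay above the male control in 11 (84.6%, against 49.2% of all genes) and the male control was the lowest array in 7 (53.8%, against 19.5% of all genes). Members of a cycle phase share cells and arrays and are not replicates, so these shares carry no test. Signs matched in the male and female pairs in 14 of 33 members (42.4%, against 48.2% of all genes).

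Further genes of the same pathways were read from 3 other lists. Of 48 listed further replication genes, 39 were tested, 0 passed, and the median was −0.055 over the 43 with a probe set. Tipin, of the replication fork protection complex, read 22.3 and 53.6 in the null mice against 75.6 and 63.6 in control mice, at −0.68 (SE 0.28, unadjusted p = 0.04999, adjusted p = 1.00 in limma). The groups did not overlap. Dnmt1, which copies DNA methylation at the fork, stood at 0.39 (SE 0.22), and Uhrf1, which recruits it, at −0.40 (SE 0.26). Of 53 listed further mitosis genes, 37 were tested and 0 passed, with a median of 0.100 over 44. Their smallest p values belonged to Cdc25b, a phosphatase that activates Cdk1, at 0.44 (SE 0.23), the centromere histone gene Cenpa at 0.46 (SE 0.25) and Ect2, an activator of cytokinesis, at 0.48 (SE 0.26). In these 37 genes, null arrays lay above both controls in 9 (24.3%, against 14.4% of all genes) and below both in 0 (against 15.2%). The 39 further replication genes tested had 6 above and 6 below (15.4% each). Over the 107 tested genes of the 3 lists, 17.8% lay above and 13.1% below.

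Of 38 listed further regulators, 31 were tested and 0 passed, with a median of −0.098 over 34. Both null arrays lay above both controls in 4 of the 31 (12.9%) and below both in 8 (25.8%). Cdkn1c, which encodes the inhibitor p57, had the smallest p of the 107 further cell cycle genes tested. It read 51.2 and 72.2 in the null mice against 26.1 and 25.9 in control mice, at 0.92 (SE 0.23, 95% interval 0.36 to 1.47). The unadjusted p was 0.00634 and the adjusted p 1.00 in limma, so it did not pass. Both null mice were above both controls, by 0.83 between the males and 1.00 between the females, while the control values lay within the range of the Y-linked genes in females. Cdkn2d, the Cdk4 inhibitor p19, pointed the other way at −0.56 (SE 0.24), reading 29.2 and 50.5 against 67.7 and 66.9. Wee1, the kinase that holds Cdk1 inactive, stood at −0.42 (SE 0.24).

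**Figure D4:**
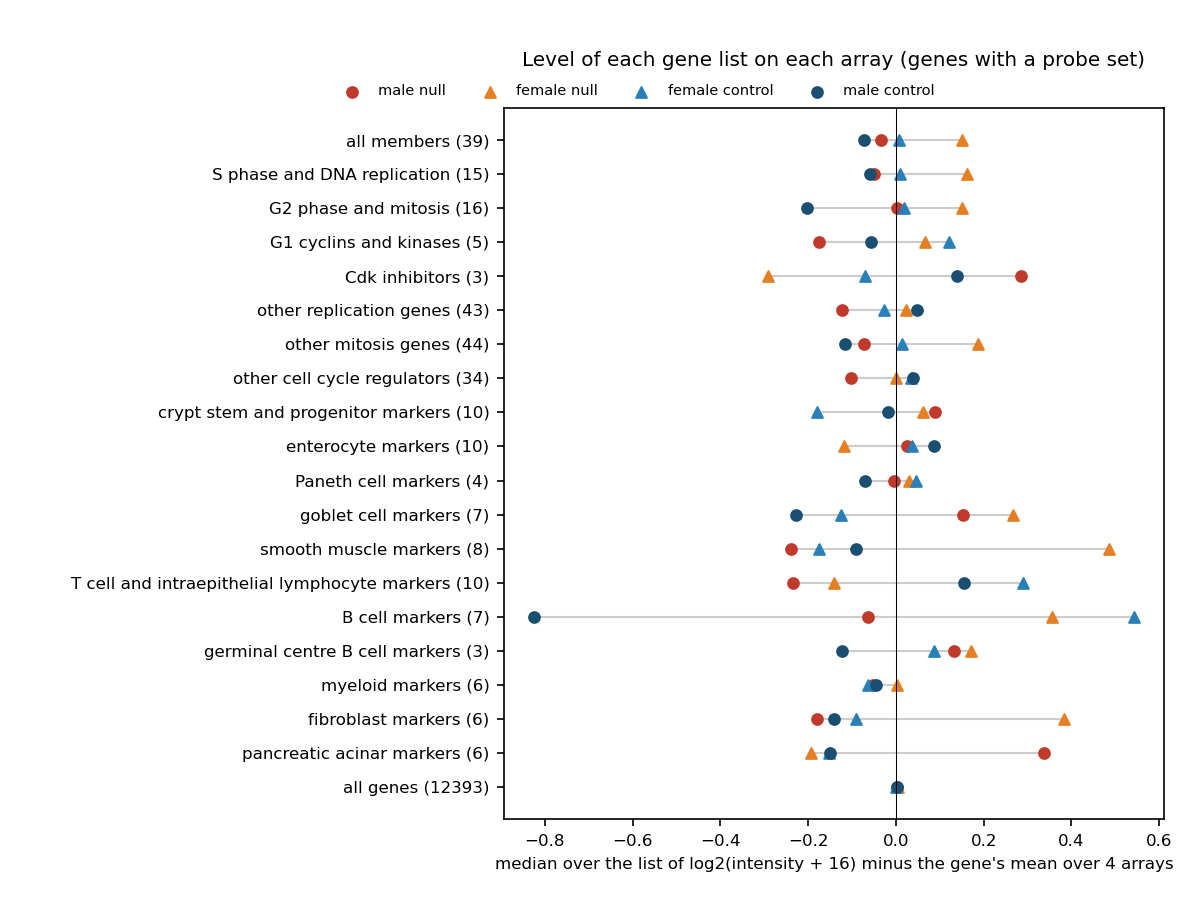
Median over each gene list of normalized log2(intensity + 16) minus the gene's mean over the arrays, for each of the 4 arrays (number of genes with a probe set in brackets). The list of all 39 members lies between −0.072 in the male control and 0.15 in the female null, and the B cell list between −0.82 in the male control and 0.54 in the female control.

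Markers of cell types differed between the animals on the same arrays. The median difference of crypt stem and progenitor markers was 0.096 over 10 genes, with 8 above 0 and 2 below. They ran from −0.47 for Tnfrsf19 to 0.77 for Msi1, with Lgr5 at 0.11 and Ascl2 at 0.069. The median of enterocyte markers was −0.15 over 10. It was 0.026 over 4 Paneth cell markers, which ran from −3.63 to 1.22 with 1 past the adjusted threshold in limma, 0.50 for goblet cell markers, −0.37 for T cells, 0.28 for B cells, 0.30 for the 3 germinal centre markers, −0.026 for myeloid cells, 0.20 for smooth muscle, 0.22 for fibroblasts and 0.28 for pancreatic acinar cells. The summed deposited intensity of 7 of 8 B cell markers was 453 and 716 in the null mice and 792 and 273 in the controls. By this sum the female control, which was highest for Ccnd2 and Mki67, was highest and the male control lowest. Single markers did not all follow this order. After normalization the female null was the highest array in 3 of the 5 tested. Cd22 weighed on the sum, reading 134.8 and 29.4 in the null mice against 126 and 116 in the controls. In the male control, 5 of the 7 B cell markers lay at or below the upper end of the Y-linked gauge, with Ms4a1 at 23.6. The summed intensity of all 8 smooth muscle markers was 2488 and 3319 in the null mice and 2584 and 2604 in the controls. That of 6 fibroblast markers was 816 and 1673 against 1050.5 and 1016, so the female null, the highest array for 17 members, was highest in these too. The part of these cells in the values of the members was not tested.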

How the data were processed

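Small intestine RNA of 4 mice was labelled and hybridised to 1 Affymetrix array each, per the labels' protocols. The authors deposited 1 linear intensity per probe set and array, by software and scaling not given in the sources used here. Of 22690 probe sets, 64 were controls and were left out. Because array medians differed by 0.227 on the log2 scale, above a limit of 0.2, intensities were quantile normalized, which assumes like distributions on all arrays. Normalized values below 0 were then set to 0, and log2(intensity + 16) was taken from the normalized intensities. This scale understates changes of dim genes. The dimmest 30% of probe sets were left out, leaving 15838 to be tested with limma 3.58.1 in R 4.3.3 (lmFit, eBayes with an intensity trend, Benjamini-Hochberg adjustment over all probe sets, threshold 0.05, residual df 2). The number of arrays limits the precision. On simulated data, the fit called 21 of 50 probe sets changed by 1 log2 unit and 47 of 50 changed by 2. All 50 changed by 3 and all 50 changed by 4 were called, and in the same run so were 22 unchanged probe sets. Changes were placed only among the brighter of the tested probe sets, so recovery of dim ones was not measured.

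Genes were named from GEO's platform annotation, where 20380 probe sets had 1 gene and 691 had several. The members and gene lists were chosen with earlier results of these data known. All 40 members were named, by role and then by p, and from each further list the 3 genes with the smallest p. The Y-linked gauge of dim values, the medians over tested members and the counts of groups apart on other scales were added after the data were seen. Alternatives varied the pseudocount, normalization, filter, trend, sex as a block, probe sets per gene and the arrays included.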

Additional observations from a re-analysis of the deposited data

Results flagged for a closer look

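The median difference of the 3 Cdk inhibitors had opposite signs in the sexes, at 0.24 between the males and −0.29 between the females, and female minus male was −0.53. On their brightest probe sets, Cdkn1a and Cdkn2c had these signs, while Cdkn1b, too dim to test, ran against them at −1.28 and 0.42. The other probe set of Cdkn1a (−0.069 and −0.68) and that of Cdkn1b (0.65 and 0.41) each had the same sign in both sexes. The brightest probe set of Tyms, the thymidylate synthase gene, differed by −0.77 between the males and 0.59 between the females, a gap of 1.36. Its other tested probe set had the same sign in both, at 0.30 and 0.55, and the values of the male null (12.8) and the female control (27.7) on the brightest lay below the upper end of the Y-linked gauge. Neither contrast was tested, since each sex had 1 animal in each group.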

How the results depend on the processing

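No member passed the adjusted threshold of limma in any alternative run. Of 379 alternative values over the 33 tested members, 35 changed sign, and 12 members never did. The 379 include the runs without the filter, without the trend and with sex as a block. These leave each difference as it was and could not change a sign. Over all probe sets, 2 passed, against 29 with sex as a block and 1 without the intensity trend. Leaving out 1 array in turn gave 0 to 35 (35 without the male null, 10 without the female null, 0 without the male control, where 205 had an unadjusted p under 0.05 in limma), the lone sample being assumed to vary like the others. Averaging all probe sets of a gene turned Mcm2 to −0.049, Mcm3 to −0.0050, Mcm4 to −0.13, Mcm7 to −0.10, Kif11 to −0.064 and Tyms to 0.22. Without normalization Mcm4 was −0.014 and Mcm7 −0.024. Aurka was 0.0021 with a pseudocount of 64, and Cdkn1a 0.026 with median scaling. Without 1 array in turn, the median of all members ran from 0.0099 to 0.21, of S phase genes from −0.15 to 0.21, of mitosis genes from 0.053 to 0.26, of G1 genes from −0.25 to 0.0088 and of the Cdk inhibitors from −0.29 to 0.29. The sign changed in 18 members: Aurka ran from −0.27 to 0.26, Birc5 from −0.45 to 0.25, Bub1b from −0.43 to 0.014, Ccna2 from −0.056 to 0.28, Ccnb2 from −0.30 to 0.40, Ccnd1 from −0.79 to 0.15, Ccnd2 from −0.71 to 0.12, Cdk2 from −0.27 to 0.013, Cdk4 from −0.27 to 0.051, Cdkn1a from −0.29 to 0.29, Cdkn2c from −0.49 to 0.35, Mcm4 from −0.37 to 0.43, Mcm6 from −0.46 to 0.22, Mcm7 from −0.16 to 0.21, Mki67 from −0.59 to 0.091, Rrm1 from −0.64 to 0.32, Top2a from −0.052 to 0.27 and Tyms from −0.60 to 0.41. The cause was not tested. The groups share no replicate number, and the fit with sex as a block, which pairs 1 null with 1 control of each sex, was the paired analysis. It called 0 members.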
